A study of Homo sapiens with 24 samples.

Results

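HOXA5, HOXA7, HOXA9 and HOXA10 are homeobox genes of the HOXA cluster, and MEIS1, PBX3 and MEF2C encode transcription factors known to act with them or beside them in acute myeloid leukemia (AML). These 7 genes were taken by symbol from a table of read counts with 23354 genes, and all 7 were found in it. RNA had been sequenced from MV4-11 and KG-1a, established lines grown from patients with AML and both labelled wild type. The cells were left untreated or were given 8CA (8-chloro-adenosine) or 8AA (8-amino-adenosine), forms of adenosine whose base carries chlorine in the first and an amino group in the second. Both drugs were used at 1 μM for 8 h or 24 h, and every line, drug and time had 2 libraries, 24 in all. The cells grew in Iscove's medium with serum and antibiotics, and the hours of the untreated libraries come from the sample labels. Nothing in the labels says that the 2 libraries of a group came from separate cultures, so p-values measure the spread between these libraries, which may be technical.

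HOX proteins are homeodomain transcription factors that mark position along the body axis in the embryo and are held at a high level in hematopoietic stem and progenitor cells, falling as myeloid cells mature. They bind DNA weakly alone and more tightly with PBX and MEIS proteins, which belong to the TALE class of homeodomain factors. In leukemias with a fusion of KMT2A, such as the KMT2A and AFF1 fusion known in MV4-11, the fusion protein holds HOXA9, MEIS1, PBX3 and MEF2C at a high level. KG-1a is an immature line known for CD34 on its surface.

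The labelled cell type was checked against its markers. In MV4-11, 9 of 10 myeloid markers, all but CD34, were over 1 CPM (counts scaled to library size and by TMM, the trimmed mean of M-values) in every library, and 4 of 4 T lymphoid markers were at 0. In KG-1a, 6 of 10 were over 1 CPM in every library (ANPEP, SPI1, CEBPA, CD34, KIT and PTPRC), while CD33, MPO, LYZ and CSF1R were not. KG-1a also held CD3D, CD3E and CD2 of the T lymphoid list, with a summed level of 293.9 to 307.6 CPM untreated and 216.5 to 351.3 CPM treated, and PAX5 and ITGA2B were over 1 CPM. The part of these levels in the results was not tested. Total counts lay between 18633963 and 24520078 per library, and the pair of KG-1a libraries with 8AA at 24 h stood further apart (chi-square per degree of freedom 12.25) than any other pair (1.43 to 5.20).

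By the coordinates of the table, the HOXA members are compact genes on the minus strand of chromosome 7, HOXA5 at chr7:27180671-27183287, HOXA7 at chr7:27193338-27196296, HOXA9 at chr7:27202057-27205149 and HOXA10 at chr7:27210210-27219880. MEIS1 lies at chr2:66662532-66799891 on the plus strand, PBX3 at chr9:128509617-128729655 on the plus strand and MEF2C at chr5:88014058-88199922 on the minus strand. Their spans of 137.4, 220 and 185.9 kb were far longer than the 2.6 to 9.7 kb of the HOXA members. The table does not name its build. The submitters' notes name hg19 and hg38. In GRCh38.p14, 0 of the 7 members and 52 of 21956 genes found by symbol started at the same base. The table's coordinates are thus not those of GRCh38.p14, and they were not mixed with the promoters below. HOXA10 overlapped the antisense gene HOXA10-AS, HOXA5 and HOXA7 overlapped HOXA-AS3, and HOXA9 and HOXA10 overlapped the read-through gene HOXA10-HOXA9, which had 0 reads in all 24 libraries. No source used here gives the strand setting of the counting or its rule for reads that fall in 2 genes. Reads of overlapping genes could not be told apart, and the 0 reads do not show that read-through was absent. Levels of HOXA9 and HOXA10 per kb may lack reads from the overlap with that gene, which was not tested.

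Promoters of 6 of the 7 members were found in a RefSeq table on GRCh38.p14, each with 250 bases before and 50 after a start site. The 5 shown belong to HOXA7, HOXA10 and PBX3, and to MEIS1, which had reads in MV4-11 only. In KG-1a, HOXA7 fell with both drugs, HOXA10 fell most clearly with 8AA at 24 h, and PBX3 rose clearly only with 8AA at 24 h. Capitals mark matches, on either strand, to the letters TATAAA known from many core promoters, to CCAAT as bound by NF-Y, to TGATNNAT as bound by HOX with PBX, or to TGACAG as bound by MEIS. No searched motif is contained in another.
HOXA7 (chr7:27156626-27156925, minus strand): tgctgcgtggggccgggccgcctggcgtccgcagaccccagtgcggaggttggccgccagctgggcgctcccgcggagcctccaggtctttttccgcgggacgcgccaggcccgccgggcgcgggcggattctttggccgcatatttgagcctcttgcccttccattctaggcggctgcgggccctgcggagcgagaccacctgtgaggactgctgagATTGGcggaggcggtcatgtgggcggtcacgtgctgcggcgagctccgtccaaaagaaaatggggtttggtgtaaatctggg
HOXA10, start 1 (chr7:27174271-27174570, minus strand): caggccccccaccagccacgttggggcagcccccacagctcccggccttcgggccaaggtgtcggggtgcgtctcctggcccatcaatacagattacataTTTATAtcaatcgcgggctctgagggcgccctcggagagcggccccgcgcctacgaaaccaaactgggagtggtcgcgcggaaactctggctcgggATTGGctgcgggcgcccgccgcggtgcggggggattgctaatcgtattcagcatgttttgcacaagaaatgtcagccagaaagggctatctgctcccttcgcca
HOXA10, start 2 (chr7:27179812-27180111, minus strand): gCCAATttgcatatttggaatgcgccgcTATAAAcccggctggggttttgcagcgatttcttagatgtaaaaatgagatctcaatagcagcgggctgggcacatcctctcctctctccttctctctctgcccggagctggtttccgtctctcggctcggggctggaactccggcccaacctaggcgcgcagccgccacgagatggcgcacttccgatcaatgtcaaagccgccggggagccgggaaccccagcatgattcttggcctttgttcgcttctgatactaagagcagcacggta
MEIS1 (chr2:66434875-66435174, plus strand): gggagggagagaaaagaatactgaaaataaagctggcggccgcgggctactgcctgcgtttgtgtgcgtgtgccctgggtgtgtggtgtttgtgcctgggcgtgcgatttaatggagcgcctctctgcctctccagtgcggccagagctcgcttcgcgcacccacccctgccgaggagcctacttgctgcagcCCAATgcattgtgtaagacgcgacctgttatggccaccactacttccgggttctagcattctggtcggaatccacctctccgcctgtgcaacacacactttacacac
PBX3 (chr9:125747933-125748232, plus strand): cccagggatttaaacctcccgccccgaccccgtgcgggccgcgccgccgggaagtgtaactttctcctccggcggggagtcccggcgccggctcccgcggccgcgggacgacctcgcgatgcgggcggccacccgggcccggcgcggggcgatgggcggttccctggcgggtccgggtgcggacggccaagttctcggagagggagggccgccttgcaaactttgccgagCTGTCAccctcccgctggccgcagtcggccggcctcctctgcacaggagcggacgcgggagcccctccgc

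The HOXA7 promoter held CCAAT once, on the reverse strand, its first base at −32 from the start site, and no TATAAA. Both HOXA10 promoters held TATAAA and CCAAT, on the reverse strand in the first and the forward strand in the second. TATAAA was at −150 in the first and −222 in the second. MEIS1 held CCAAT at −57, and PBX3 held TGACAG on the reverse strand at −20. Among the promoters not shown, that of HOXA9 held TATAAA at −150 and CCAAT at −55, though no drug change of HOXA9 passed the test. Those of MEF2C held TGACAG at starts 3, 4 and 7, TGATNNAT at start 3 and CCAAT at start 7. A link between these letters and the changes was not tested. Among 35116 promoters of this length in the table, 11.5% held TATAAA, 34.6% CCAAT, 7.4% TGATNNAT and 15.8% TGACAG. The PBX3 window was dense in CG steps, with 43 where the median promoter had 14 and 4.19% had more, while HOXA7 had 31 and MEIS1 18.

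In untreated cells, the lines kept different parts of the HOXA group. KG-1a held all 4 HOXA members, PBX3 and MEF2C and no MEIS1, while MV4-11 held HOXA9, HOXA10, MEIS1, PBX3 and MEF2C and almost no HOXA5 or HOXA7. Levels between genes are given as CPM per kb of exon from a fit of all 24 libraries, in the 4 untreated libraries of a line, the 8 h pair first. All 7 members were called different between the lines by the quasi-likelihood test of edgeR (Benjamini-Hochberg adjusted p below 0.05), but so were 87.4% of the 14055 genes tested, so the count is near its background.

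HOXA7, a HOX gene of the middle of the cluster, was the highest member in KG-1a at 35.1, 33.7, 34.8 and 35.3 CPM per kb, with 5577 reads against 2 in the untreated MV4-11 libraries. The ratio of its rates was 2888 (95% exact interval 799.2 to 23860, for counting error only). HOXA5, known for a part in progenitor and monocyte development, was at 12.5, 13.98, 12.6 and 11.95 CPM per kb in KG-1a and between 0.0280 and 0.125 in MV4-11. It had 1691 reads against 8, a ratio of 218.9 (110.9 to 508). In MV4-11 these 2 genes had 0 to 4 and 0 to 1 reads per library over all 12 libraries, so no response to a drug could be measured for them there.

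MEIS1, the TALE partner of HOXA9, showed the opposite pattern, with 13.9, 14, 15.2 and 14.9 CPM per kb in MV4-11. KG-1a had 0 reads of MEIS1 in each of its 12 libraries, and 3 counts per library would allow up to 0.0260 CPM per kb. Against that floor MEIS1 was at least 534.3-fold higher in untreated MV4-11. Between these extremes, HOXA9 was at 3.64, 3.77, 3.64 and 3.90 CPM per kb in MV4-11 and 12.7, 11.5, 10.8 and 12.2 in KG-1a. The 4 libraries of each line did not overlap, and the difference was −1.66 ± 0.07 (log2, MV4-11 minus KG-1a, SE), with an adjusted p of 6.8e-17 in edgeR's test.

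HOXA10, the posterior neighbour of HOXA9, differed least among the HOXA members. It was at 21.0, 20.04, 20.4 and 23.2 CPM per kb in MV4-11 and 28.2, 29.1, 26.2 and 26.3 in KG-1a, and the log2 difference was −0.38 ± 0.04. PBX3 was higher in MV4-11, at 22.7, 21.2, 22.4 and 24.4 CPM per kb against 8.90, 9.76, 8.86 and 8.50, a log2 difference of 1.33 ± 0.05. MEF2C, a MADS-box factor of myeloid and lymphoid progenitors, was at 17.5, 17.1, 20.4 and 21.1 in MV4-11 and 13.4, 14.7, 16.3 and 17.3 in KG-1a, 0.31 ± 0.04 higher on the log2 scale (adjusted p 2.4e-07). Its libraries overlapped between the lines, since a 24 h untreated KG-1a library at 17.3 lay above the lowest MV4-11 library, an 8 h one at 17.1. Within each time point the lines did not overlap.

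**Figure D1:**
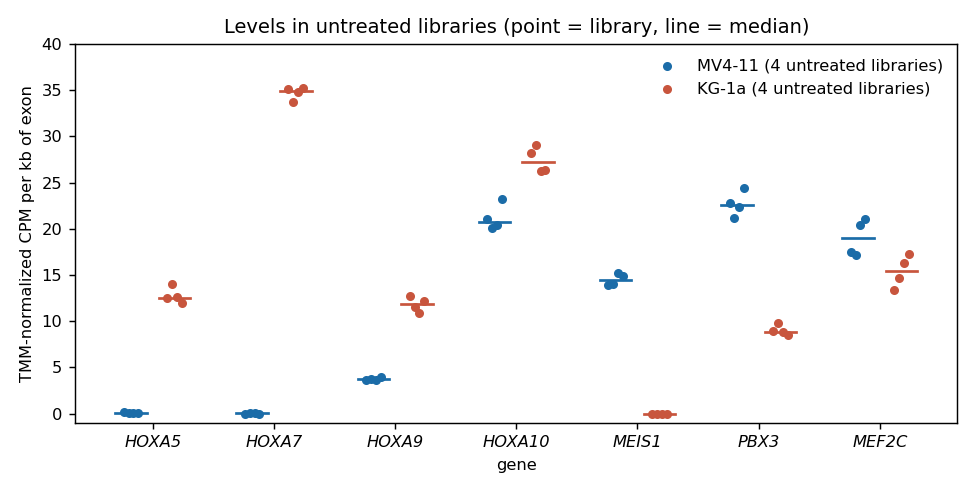
Level of each member in the 4 untreated libraries of MV4-11 and KG-1a, as TMM-normalized CPM per kb of exon on the vertical axis (each point is a library, each line a median). The median of HOXA7 is 34.9 in KG-1a and near 0 in MV4-11, and MEIS1 reaches 14.4 in MV4-11 while KG-1a stands at 0.

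Within KG-1a the order from high to low was HOXA7, HOXA10, MEF2C, HOXA5, HOXA9 and PBX3, with medians of 34.9, 27.3, 15.5, 12.6, 11.9 and 8.88 CPM per kb. The ranges of MEF2C and HOXA5 overlapped, but MEF2C was above HOXA5 within each untreated library. Those of HOXA5 and HOXA9 overlapped too, and their order changed between libraries. The order of genes was not tested. Within MV4-11 the order was PBX3, HOXA10, MEF2C, MEIS1 and HOXA9, with medians of 22.6, 20.7, 19.0, 14.4 and 3.71. PBX3 overlapped HOXA10 in range there but was above it within each untreated library. HOXA10 overlapped MEF2C, and their order changed between libraries, while MEIS1 and HOXA9 each stood clear of their neighbours.

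Along the cluster, the members sat inside runs of genes over 1 CPM per kb. In untreated KG-1a, HOXA3, HOXA4 and HOXA6, which lie on the anterior side, had medians of 7.82, 5.19 and 12.1 CPM per kb beside HOXA5 and HOXA7. In MV4-11 the run went from HOXA9 to HOXA11, and HOXA11 was at 5.21 against 0.717 in KG-1a. Among other cofactor genes, MEIS2 was at 12.02 CPM per kb in KG-1a and 1.31 in MV4-11, while PBX2 was at 29.4 and 28.1. Of the HOXB genes, HOXB2 was at 20.9 in KG-1a and HOXB4 at 5.75 in MV4-11.

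**Figure D2:**
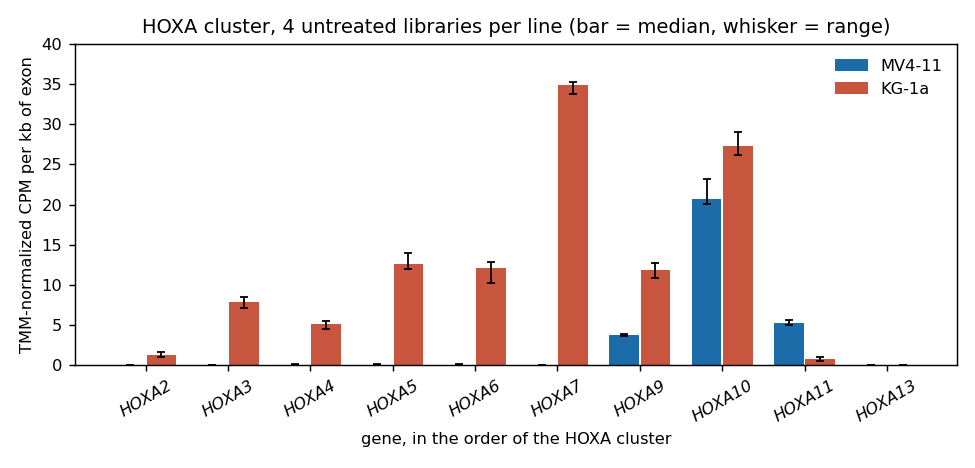
Level of HOXA2 to HOXA13 in their order along the cluster, as TMM-normalized CPM per kb of exon (bar, median of 4 untreated libraries; whisker, lowest to highest library). KG-1a is over 1 CPM per kb from HOXA2 to HOXA10, with a peak of 34.9 at HOXA7, and MV4-11 from HOXA9 to HOXA11, with a peak of 20.7 at HOXA10.

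Each drug group was next compared with the untreated group of its line and time. Levels of a gene are given from here on as TMM-normalized CPM within a line, the 2 libraries of a group joined by "and". Changes are log2 fold changes ± SE from the 12 libraries of the line, and "called" means a p from that edgeR test below 0.05 after adjustment over all genes tested. The 8CA and the 8AA group of a line and time were set against the same 2 untreated libraries, so their changes share that error. In these bulk samples, fewer cells with a transcript and less of it per cell cannot be told apart. Levels are shares of a library, so a rise or fall is relative to the other transcripts. The amount of RNA per cell cannot be read from them.

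In KG-1a, 6 members were tested, and HOXA7 fell in all 4 comparisons. With 8CA at 8 h it was the 1 of 6 called, where 0.181% of 12711 genes were called lower and 0.7% higher. With 8AA at 8 h, 3 of 6 were called lower, where 18% of genes were called lower and 16.7% higher. With 8CA at 24 h, 2 of 6 were called lower and 1 higher, against 24% and 23.4% of all genes, and with 8AA at 24 h, 2 of 6 were lower and 1 higher, against 26.6% and 25.4%. These shares of called members at 24 h are near the background.

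HOXA7 was at 72.9 and 69.9 CPM in untreated KG-1a at 8 h, at 57.6 and 55.5 under 8CA and at 60.6 and 56.6 under 8AA. At 24 h the untreated libraries were at 73.0 and 74.0 CPM, those with 8CA at 50.9 and 52.2 and those with 8AA at 53.3 and 47.3. The 8 treated libraries were all below the 4 untreated ones. At 24 h HOXA7 fell by 29.8% with 8CA (−0.51 ± 0.06, adjusted p 9.2e-06) and fell by 31.4% with 8AA (−0.54 ± 0.06, adjusted p 3.2e-06), and 93.3% and 91.8% of the genes tested had a higher log2 fold change. Without 8AA replicate A or B of the widely spaced pair, the change at 24 h was −0.64 and −0.46, called in both cases. At 8 h it fell by 17.9% with 8AA (−0.28 ± 0.06, adjusted p 0.00225). With 8CA at 8 h the change was −0.34 ± 0.06 (adjusted p 0.016), and 96% of genes had a higher value. That call was lost without any 1 of the 4 libraries compared, the change then lying between −0.37 and −0.30 with an adjusted p of up to 0.242.

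HOXA10, a HOX gene of hematopoietic progenitors that is switched off as myeloid cells mature, fell most with 8AA at 24 h. It was at 87.0 and 87.4 CPM untreated, at 80.9 and 79.3 under 8CA and at 66.6 and 63.8 under 8AA at that time. The 8AA libraries were the lowest of all 12, and the change of −25.2% (−0.42 ± 0.05, adjusted p 3.9e-06) was called under every alternative (−0.45 and −0.39 without 8AA replicate A and B). With 8CA at 24 h the change was −0.12 ± 0.05 (adjusted p 0.0495), a call that was lost in 10 of 11 alternatives, among them without each of the 4 libraries compared (−0.14 to −0.11, adjusted p up to 0.21). At 8 h HOXA10 was at 92.7 and 95.4 CPM untreated, 81.6 and 84.5 under 8CA and 84.4 and 84.4 under 8AA. The 4 treated libraries were below both untreated ones, and the change with 8AA was −0.16 ± 0.05 (adjusted p 0.0186). That call was lost without untreated replicate B (−0.14, adjusted p 0.115), without 8AA replicate A (−0.16, adjusted p 0.0929) or B (−0.16, adjusted p 0.0938), and with library size as the only scaling (−0.12, adjusted p 0.053). With 8CA at 8 h the change of −0.18 ± 0.05 was not called (adjusted p 0.094), and it was called when only the 6 libraries of that time were fitted (adjusted p 0.0362).

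HOXA5 rose with 8CA at 24 h, from 21.8 and 20.6 CPM to 27.4 and 28.5, by 31.6% (0.40 ± 0.09, adjusted p 0.00154). With 8AA at 24 h it was at 22.9 and 24.1 CPM, above both untreated libraries and below both with 8CA, and the change of 0.15 ± 0.09 was not called (adjusted p 0.173). It was called with library size as the only scaling (0.24, adjusted p 0.0305) and with upper-quartile scaling (0.22, adjusted p 0.0444). At 8 h the 6 libraries of HOXA5 lay between 21.1 and 25.3 CPM and the drug groups overlapped the untreated one.

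HOXA9, the member best known as a driver of AML, was called in no drug comparison of either line. In KG-1a it was at 27.0 and 24.3 CPM untreated, 27.7 and 25.3 under 8CA and 28.9 and 28.4 under 8AA at 8 h, and at 23.2 and 26.2, 28.1 and 27.7, and 27.1 and 27.9 at 24 h. The 4 treated libraries at 24 h were above both untreated ones. The change was 0.18 ± 0.08 under 8CA (adjusted p 0.0771) and 0.16 ± 0.08 under 8AA (adjusted p 0.109), with 95% intervals of 0.01 to 0.35 and −0.01 to 0.33. Both were called with library size only (0.21, adjusted p 0.044, and 0.25, adjusted p 0.0139) and with upper-quartile scaling (0.22, adjusted p 0.0368, and 0.23, adjusted p 0.0235), and the change with 8CA also without untreated replicate B (0.26, adjusted p 0.0459).

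PBX3, which binds DNA together with HOX proteins, was called in 1 of the 4 KG-1a comparisons, with 8AA at 24 h. It was at 30.05 and 28.8 CPM untreated, 28.9 and 30.6 under 8CA and 35.4 and 37.97 under 8AA. The 8AA libraries were the highest of all 12, and the rise was 24.4% (0.31 ± 0.07, adjusted p 0.00137), 0.36 and 0.26 without 8AA replicate A and B, both called. At 8 h with 8AA the change was 0.10 ± 0.07 (adjusted p 0.293).

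MEF2C was at 94.7 and 103.3 CPM untreated, 98.0 and 101.0 under 8CA and 88.9 and 85.5 under 8AA at 8 h in KG-1a. Both 8AA libraries were below the rest, and the change was −0.18 ± 0.06 (adjusted p 0.0369). The call was lost without untreated replicate B (−0.12, adjusted p 0.297), without 8AA replicate A (−0.21, adjusted p 0.0824) or B (−0.15, adjusted p 0.199) and with library size only (−0.15, adjusted p 0.0989). At 24 h the groups overlapped, at 116.1 and 123.5 CPM untreated, 117.1 and 112.7 under 8CA and 107.0 and 121.5 under 8AA. The 2 libraries with 8AA were wide apart, and without replicate B the change of −0.07 ± 0.06 became −0.16 (adjusted p 0.0156), while without replicate A it was 0.02 (adjusted p 0.79).

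**Figure D3:**
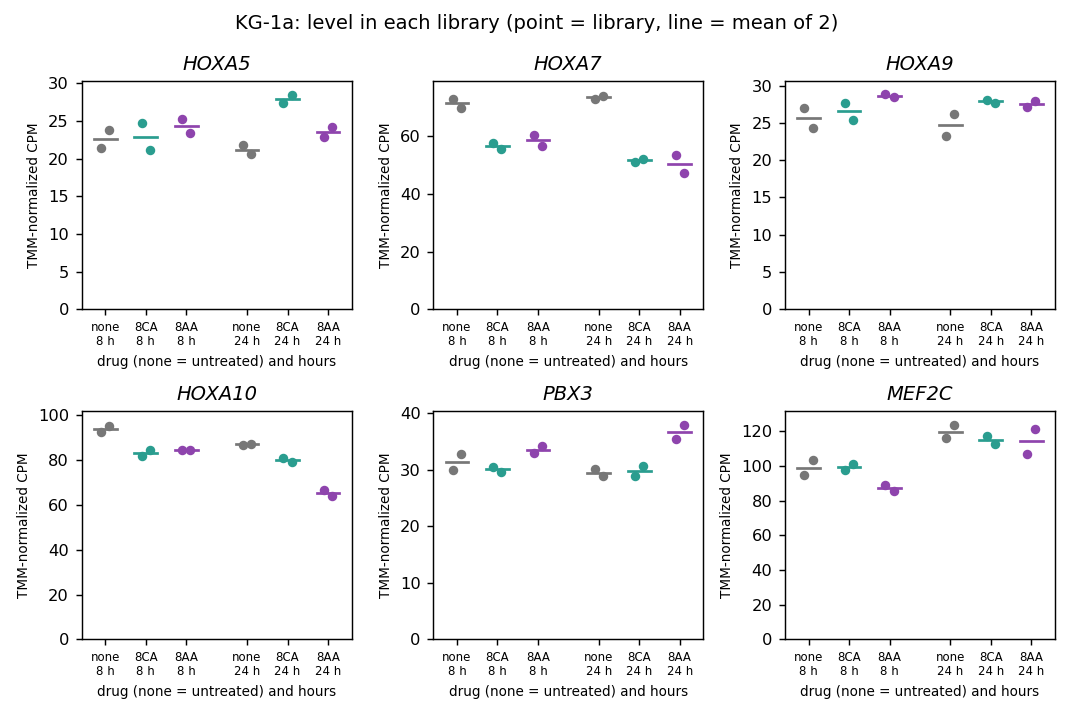
TMM-normalized CPM of the 6 members tested in KG-1a (each point is a library, each line the mean of 2), by drug and hours, with each vertical axis starting at 0. HOXA7 lies at 69.9 to 74.0 in the 4 untreated libraries and at 47.3 to 60.6 in the 8 treated ones, and HOXA10 is lowest and PBX3 highest with 8AA at 24 h.

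In MV4-11, 5 members were tested, and no member was called lower in any of the 4 drug comparisons. With 8CA at 8 h, 0 of 5 were called by edgeR, 1 of 5 had an unadjusted p below 0.05 and 0 were called by DESeq2, where edgeR called 5.77% of 12800 genes lower and 4.58% higher. With 8AA at 8 h, 1 of 5 was called, higher, against 15.6% of genes lower and 13.6% higher. With 8CA at 24 h, 2 of 5 were called higher, against 22.7% lower and 21.2% higher, and with 8AA at 24 h 1 of 5 was called higher, against 15.3% and 13.9%.

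MEIS1 was at 82.9 and 83.3 CPM in untreated MV4-11 at 8 h, 86.4 and 87.2 under 8CA and 96.9 and 97.1 under 8AA. At 24 h it was at 90.2 and 88.8 CPM untreated, 99.3 and 97.2 under 8CA and 97.1 and 99.7 under 8AA. In every drug group both libraries were above both untreated ones of that time, a pair that the 2 drugs share. The share of all genes so separated was not counted. With 8CA at 8 h the change of 0.06 ± 0.04 was not called (adjusted p 0.413). MEIS1 rose by 16.7% with 8AA at 8 h (0.22 ± 0.04, adjusted p 0.00148), and this call held under all 11 alternatives. At 24 h the 8CA change was 0.13 ± 0.04 (adjusted p 0.0208) and the 8AA change 0.14 ± 0.04 (adjusted p 0.0287). The 8CA call was lost without untreated replicate B (0.12, adjusted p 0.113), without 8CA replicate A (0.12, adjusted p 0.113) and by DESeq2 (adjusted p 0.0696). The 8AA call was lost without any 1 of the 4 libraries compared (0.11 to 0.15, adjusted p up to 0.176), without a filter on low counts (adjusted p 0.0694) and by DESeq2 (adjusted p 0.106).

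MEF2C rose with 8CA at 24 h in MV4-11, from 136.0 and 140.4 CPM to 158.4 and 158.3, by 14.6% (0.20 ± 0.05, adjusted p 0.00376). With 8AA at 24 h it was at 134.5 and 141.8 CPM, on both sides of the untreated pair, and the change was 0.00 ± 0.05 with a 95% interval of −0.10 to 0.10. At 8 h it was at 116.8 and 113.9 CPM untreated, 126.7 and 128.6 under 8CA and 124.0 and 114.6 under 8AA. Both 8CA libraries were above the untreated ones, and the change of 0.15 ± 0.05 missed the threshold (adjusted p 0.0717). It passed with library size only (0.18, adjusted p 0.029), with upper-quartile scaling (0.17, adjusted p 0.0342) and with a replicate block (0.15, adjusted p 0.0417).

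HOXA9, HOXA10 and PBX3 were not called in MV4-11. HOXA9 had few reads there, 145 to 226 per library, and lay between 6.87 and 9.02 CPM. Its largest change was 0.23 ± 0.12 with 8CA at 24 h (7.26 and 7.81 CPM untreated, 9.02 and 8.72 treated, adjusted p 0.119), and its 95% interval of −0.01 to 0.48 does not show whether it moved. HOXA10 was at 63.1 and 71.8 CPM untreated, 67.1 and 65.1 under 8CA and 68.6 and 64.1 under 8AA at 24 h, all overlapping, and its 95% interval with 8AA was −0.15 to 0.11. At 8 h it was at 65.2 and 62.0 CPM untreated and at 58.4 and 59.4 with 8AA, lower in both treated libraries, but the change of −0.11 ± 0.06 was not called (adjusted p 0.204). PBX3 was at 70.7 and 77.2, 80.8 and 75.3, and 75.3 and 74.7 CPM in the same groups, which also overlapped.

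**Figure D4:**
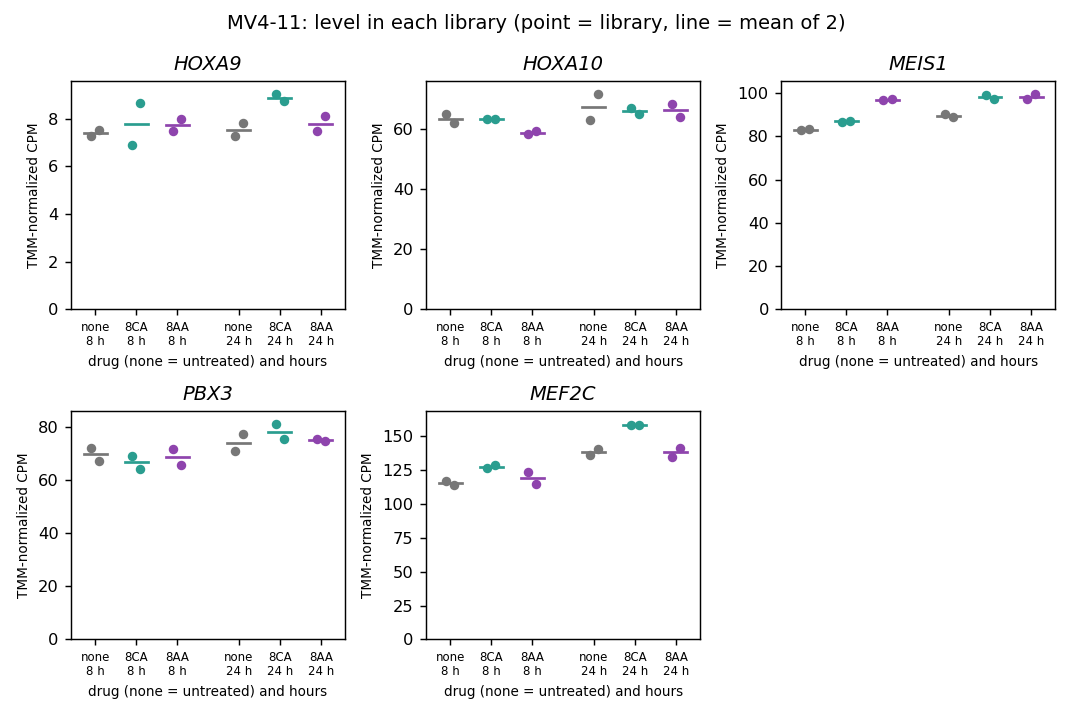
TMM-normalized CPM of the 5 members tested in MV4-11 (each point is a library, each line the mean of 2), by drug and hours, with each vertical axis starting at 0. MEIS1 lies at 82.9 to 90.2 in the 4 untreated libraries, and MEF2C is highest with 8CA at 24 h, at 158.3 and 158.4.

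Medians over the members pool changes of both signs and are given as a description. In MV4-11 the 5 tested had a median log2 fold change of 0.06 and 0.05 with 8CA and 8AA at 8 h and 0.13 and 0.02 at 24 h, beside 0.01, 0.01, 0.00 and 0.00 for all genes. In KG-1a the medians of 6 members were −0.03 and −0.03 at 8 h and −0.02 and 0.04 at 24 h, beside 0.00, 0.01, 0.01 and 0.01. The KG-1a values with 8CA at 24 h ran from HOXA7 at −0.51 to HOXA5 at 0.40, which are neighbours on either side of HOXA6.

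8AA and 8CA differ by an amino group in place of the chlorine atom, and they were compared directly at the same dose and hours in 4 pairs of groups, 2 per line. In MV4-11, 1 of 5 members was called at 8 h, where 6.66% of genes were called in either direction, and 1 of 5 at 24 h, where 21.2% were. In KG-1a, 1 of 6 was called at 8 h, against 30.4% of genes, and 3 of 6 at 24 h, against 42%. The members that differed most were HOXA10 and PBX3 in KG-1a at 24 h.

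HOXA10 was lower with 8AA than with 8CA in KG-1a at 24 h (66.6 and 63.8 against 80.9 and 79.3 CPM), a change of −18.5% (−0.30 ± 0.05, 8AA minus 8CA, adjusted p 0.000192). PBX3 was higher with 8AA (35.4 and 37.97 against 28.9 and 30.6 CPM), by 23% (0.30 ± 0.07, adjusted p 0.0026). Both calls held under all 11 alternatives, with HOXA10 at −0.33 and −0.27 and PBX3 at 0.35 and 0.25 without 8AA replicate A and B. HOXA5 was lower with 8AA (−0.25 ± 0.08, adjusted p 0.027), and this was lost without 8CA replicate A (−0.28, adjusted p 0.0681) or B (−0.22, adjusted p 0.137), without 8AA replicate A (−0.21, adjusted p 0.0779), with library size only (−0.18, adjusted p 0.0997), with upper-quartile scaling (adjusted p 0.0542) and by DESeq2 (adjusted p 0.0767). HOXA7 did not pass the test of a difference between the drugs. Its values were 0.05 ± 0.06 at 8 h, with a 95% interval of −0.08 to 0.18, and −0.03 ± 0.06 at 24 h, with an interval of −0.17 to 0.10.

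MEF2C differed between the drugs in each line, at different hours. In KG-1a at 8 h it was lower with 8AA (−0.19 ± 0.06, adjusted p 0.0352), which was lost without any 1 of the 4 libraries compared (−0.22 to −0.16, adjusted p up to 0.195), with library size only (adjusted p 0.0716) and with upper-quartile scaling (adjusted p 0.0514). In MV4-11 at 24 h it was lower with 8AA, a change of −12.8% (−0.20 ± 0.05, adjusted p 0.00868), which was lost without 8CA replicate A (−0.20, adjusted p 0.0525) or 8AA replicate A (−0.17, adjusted p 0.0733). MEIS1 in MV4-11 was higher with 8AA at 8 h (0.16 ± 0.04, adjusted p 0.0429), lost in 7 of 11 alternatives, among them without each of the 4 libraries compared (0.16 to 0.17, adjusted p up to 0.151), and at 24 h the difference was 0.00 ± 0.04, with an interval of −0.09 to 0.09. For HOXA9 the intervals at 24 h were −0.44 to 0.06 in MV4-11 and −0.19 to 0.14 in KG-1a.

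**Figure D5:**
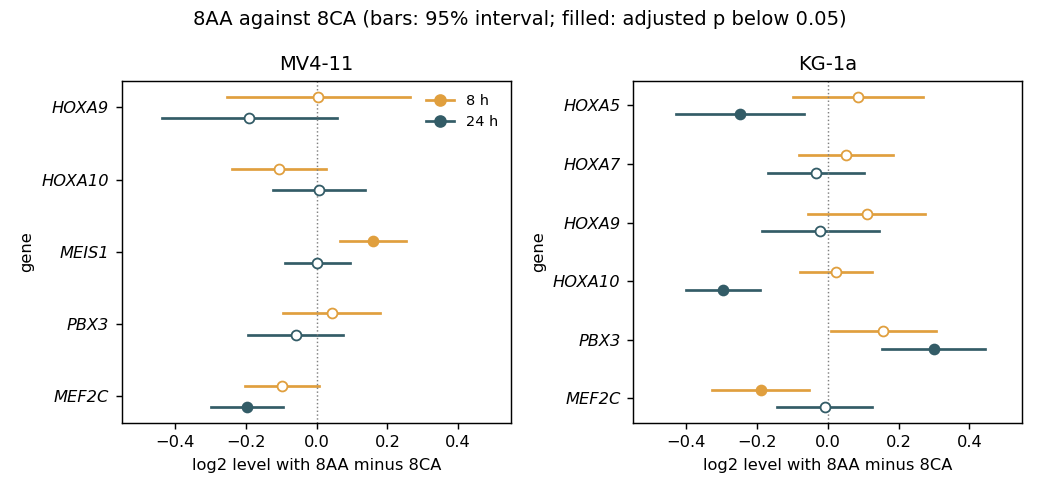
Difference between 8AA and 8CA (log2, 8AA minus 8CA) for each member tested at 8 h and 24 h in MV4-11 and KG-1a, with 95% intervals as bars and filled points for an adjusted p below 0.05. In KG-1a at 24 h, HOXA10 lies at −0.30 and PBX3 at 0.30, and the HOXA7 intervals span 0 at both times.

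The responses at 24 h were then set against those at 8 h. In MV4-11, edgeR called 0 of 5 members for 8CA, where 16.3% of genes were called, and 0 of 5 for 8AA, where 4.63% were. The number with an unadjusted p below 0.05 was 0 in each, and DESeq2 called 0 in each. In KG-1a, 1 of 6 was called for 8CA, against 23.9% of genes, and 1 of 6 for 8AA, against 18.3%. HOXA5 responded more at 24 h to 8CA (0.38 ± 0.12, adjusted p 0.038), lost without untreated 8 h replicate B (0.29, adjusted p 0.163), 8CA 8 h replicate B (0.27, adjusted p 0.176), either 24 h untreated library (0.40 and 0.34, adjusted p 0.0795 and 0.131) or either 24 h 8CA library (0.40 and 0.35, adjusted p 0.0706 and 0.118). HOXA10 fell further at 24 h with 8AA (−0.26 ± 0.07, adjusted p 0.0154), lost without 8AA 8 h replicate A or B (−0.26 in each, adjusted p 0.0548 and 0.0509), without untreated 24 h replicate B (−0.26, adjusted p 0.0532), with upper-quartile scaling (adjusted p 0.057) and by DESeq2 (adjusted p 0.0598). For HOXA7 with 8AA the difference of −0.26 ± 0.09 missed the threshold (adjusted p 0.0519) and passed it without a filter on low counts (adjusted p 0.043) and without 8AA 24 h replicate A (−0.35, adjusted p 0.00147).

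Untreated libraries at 24 h were also compared with those at 8 h, which are separate pairs, so the hours and the harvest cannot be told apart. At 24 h against 8 h, 1 of 5 members was called in MV4-11, where 5.54% of genes were, and 1 of 6 in KG-1a, where 4.45% were, and in both lines it was MEF2C. It rose from 116.8 and 113.9 to 136.0 and 140.4 CPM in MV4-11 (0.26 ± 0.05, adjusted p 0.00609) and from 94.7 and 103.3 to 116.1 and 123.5 CPM in KG-1a (0.27 ± 0.06, adjusted p 0.0259). The groups did not overlap in either line. The call was lost in MV4-11 without untreated 8 h replicate B (0.23, adjusted p 0.0631) or 24 h replicate B (0.24, adjusted p 0.0898), and in KG-1a without any 1 of the 4 libraries (0.22 to 0.34, adjusted p up to 0.239). The other members had untreated time differences between −0.11 and 0.11.

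The responses of the 4 members tested in both lines were also compared between the lines, in the fit of all 24 libraries. With 8CA at 8 h edgeR called 0 of 4, with 1 at an unadjusted p below 0.05 and 0 called by DESeq2, where edgeR called 1.41% of 11485 genes. With 8AA at 8 h 1 of 4 was called, against 13.4%, with 8CA at 24 h 1 of 4, against 13.5%, and with 8AA at 24 h 2 of 4, against 26.8%. HOXA10 had the clearest difference. With 8AA at 24 h it fell in KG-1a and was not called in MV4-11, and the response in KG-1a, subtracted from that in MV4-11, left 0.42 ± 0.08 (adjusted p 0.000319), called under all 14 alternatives and 0.45 and 0.31 without KG-1a 8AA replicate A and B. PBX3 with 8AA at 24 h was −0.27 ± 0.09 (adjusted p 0.0383), lost without either MV4-11 8AA library (−0.28 and −0.27, adjusted p 0.0762 and 0.0842), MV4-11 untreated replicate B (−0.21, adjusted p 0.177) or either untreated KG-1a library (−0.31 and −0.24, adjusted p 0.0617 and 0.138).

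MEF2C responded differently by line with 8AA at 8 h (0.27 ± 0.08, adjusted p 0.0343) and with 8CA at 24 h (0.28 ± 0.08, adjusted p 0.0258). The first was lost in 10 of 14 alternatives, without any library but MV4-11 8AA replicate B and KG-1a untreated replicate A (0.20 to 0.30, adjusted p up to 0.1885) and with DESeq2 size factors (adjusted p 0.0601), library size only (adjusted p 0.0741), no filter (adjusted p 0.129) or DESeq2's own test (adjusted p 0.0699). The second was lost without any of 6 of the 8 libraries, all but MV4-11 untreated replicate B and KG-1a untreated replicate A (adjusted p up to 0.128).

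Across the 12 libraries of a line, pairs of members correlated in both directions in KG-1a and mostly positively in MV4-11. These correlations of log2 CPM are descriptions, since the libraries share the groups and the untreated controls. In KG-1a, HOXA7 and HOXA10 had the highest Pearson r of the pairs, 0.777, while HOXA7 and HOXA5 were at −0.608 and HOXA10 and PBX3 at −0.666. In MV4-11 all pairs but HOXA10 with MEIS1 (−0.04) were positive, from 0.174 to 0.76, the highest being MEF2C with PBX3, and MEIS1 with HOXA9 was at 0.493. The genes most like HOXA7 in KG-1a were MLKL (r 0.964), ELOVL6 (0.946) and PPP1R14C (0.944), and those most like HOXA10 were MCCC2 (0.96), LIG3 (0.957) and HNRNPU (0.957). Most like HOXA5 were ZBTB49 (0.901), CRNKL1 (0.893) and DTX4 (0.881), and most like HOXA9 were ZSWIM1 (0.906), CDAN1 (0.878) and SP1 (0.855). For PBX3 they were EFCAB14 (0.954), TRIM22 (0.948) and HMMR (0.937), and for MEF2C VASH1 (0.935), TSPOAP1 (0.933) and IQGAP2 (0.924), each chosen as the highest among 10999 genes.

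In MV4-11, among 10933 genes, MEIS1 was most like ENPP2 (r 0.967), JAK1 (0.964) and AGO4 (0.963), and MEF2C was most like BIN2 (0.972), EIF2S3 (0.968) and XRN1 (0.962). PBX3 was most like OSBPL8 (0.972), GOPC (0.971) and MIB1 (0.961). HOXA10 was most like TUBA8 (0.871), EAF1 (0.85) and RP2 (0.845), and HOXA9 was most like SYCE2 (0.912), PI4KA (0.878) and WDR31 (0.876).

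Of the other HOXA genes of KG-1a, with 8CA at 24 h 3 of 5 tested were called higher (23.4% of all genes), HOXA6 (0.46 ± 0.12, adjusted p 0.00606), HOXA3 (0.44 ± 0.08, adjusted p 0.000504) and HOXA4 (0.35 ± 0.11, adjusted p 0.0149), which lie around HOXA5. With 8AA at 24 h these 3 were not called, at −0.06 ± 0.13, 0.04 ± 0.09 and 0.00 ± 0.11. Of the 4 non-coding RNAs of the cluster tested in KG-1a, HOXA-AS3 was called lower with 8CA at 24 h (adjusted p 0.000534, 24% of all genes). It overlaps HOXA5 and HOXA7 on the table's coordinates and had 1 to 25 reads per library over the line. HOXA11-AS was called higher with 8AA (0.90 ± 0.24, adjusted p 0.00588, 25.4% of all genes), at 10 to 55 reads per library. In MV4-11, HOXA11 was the 1 other HOXA gene tested, and it was called lower with 8CA at 24 h (−0.30 ± 0.10, adjusted p 0.0242, 22.7% of all genes).

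Partners of the members moved in mixed directions at 24 h. Of the other TALE genes in KG-1a, 5 were tested. With 8AA, PKNOX1 (−0.25 ± 0.06) and TGIF1 (−0.40 ± 0.11) were called lower and PBX2 higher (0.28 ± 0.05), where 26.6% and 25.4% of all genes were. With 8CA only MEIS2 was called, lower (−0.22 ± 0.06, adjusted p 0.00492), where 24% of all genes were. In MV4-11, 1 of 7 was called at 24 h, MEIS3, higher with 8AA (adjusted p 0.0398, 13.9% of all genes). MEIS3 had few reads there, 4 to 8 per untreated library. Of the other MEF2 genes and the class IIa histone deacetylases, which bind and repress MEF2 proteins, 4 of 6 were called higher with 8CA at 24 h in KG-1a, where 23.4% of all genes were (HDAC5, MEF2D, HDAC7 and MEF2A). With 8AA there, 3 were called higher and 1 lower (25.4% and 26.6% of all genes), HDAC5 at 0.88 ± 0.07, HDAC7 at 0.60 ± 0.05 and HDAC4 at −0.40 ± 0.09. In MV4-11, HDAC5 was called higher with 8CA (0.35 ± 0.05) and with 8AA (0.20 ± 0.05) at 24 h, and MEF2A lower with 8AA (−0.25 ± 0.08), among 7 tested. There 21.2% of all genes were called higher with 8CA, and 13.9% higher and 15.3% lower with 8AA. Of the HOXB genes, HOXB3 (0.73 ± 0.11) and HOXB4 (0.28 ± 0.09) were called higher among 4 tested with 8CA at 24 h in MV4-11 (21.2% of all genes). In KG-1a, HOXB3 was called lower among 2 tested with 8AA at 24 h (adjusted p 0.00141, 26.6% of all genes), at 10 to 15 reads per untreated library.

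Of 12 genes described as targets of HOXA9 and MEIS1, all 12 were tested in KG-1a and 10 in MV4-11. In KG-1a with 8AA at 24 h, 7 were called higher and 1 lower, where 25.4% of all genes were called higher and 26.6% lower, with a median log2 fold change of 0.24 beside 0.01 for all genes. SOX4, a progenitor transcription factor, rose by 1.11 ± 0.06 and ERG by 0.66 ± 0.05, while LMO2 was called lower (−0.38 ± 0.07). With 8CA at 24 h in KG-1a, 3 were called higher and 2 lower (23.4% and 24% of all genes), and CD34 was −0.31 ± 0.06 with 8CA and 0.54 ± 0.06 with 8AA. In MV4-11 at 24 h, 6 were called higher and 3 lower with 8CA (21.2% and 22.7% of all genes), and FLT3, the receptor tyrosine kinase, was called higher with 8CA (0.29 ± 0.04) and 8AA (0.23 ± 0.04), where 1 of 10 was called higher and 1 lower, LMO2 at −0.17 ± 0.05 (13.9% and 15.3% of all genes).

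Of 12 other genes described as bound by KMT2A fusion proteins, MV4-11 had 9 with enough counts for a test and KG-1a had 10. In MV4-11, the line with such a fusion, 6 were called higher and 0 lower with 8CA at 24 h (21.2% and 22.7% of all genes), led by SENP6 (0.55 ± 0.06) and JMJD1C (0.45 ± 0.05), with a median of 0.30 beside 0.00 for all genes. With 8AA at 24 h 3 were called higher (13.9% of all genes), RUNX2 (0.47 ± 0.08), TCF4 (0.46 ± 0.06) and JMJD1C (0.29 ± 0.05). In KG-1a at 24 h, 3 were called higher and 2 lower with 8CA (23.4% and 24% of all genes) and 3 higher and 1 lower with 8AA (25.4% and 26.6%), and JMJD1C (0.44 ± 0.07 and 0.34 ± 0.07) and ZEB2 (0.27 ± 0.06 and 0.39 ± 0.06) were called higher with each drug. At 8 h with 8AA, over all 7 lists of other genes, 10 were called higher and 3 lower of 41 tested in MV4-11 (13.6% and 15.6% of all genes), and 11 higher and 12 lower of 44 tested in KG-1a (16.7% and 18%).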

How the data were processed

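Gene counts, as the authors deposited them, were whole-number counts of reads for 23354 genes in 24 libraries, not normalized. The submitters' processing notes name Trimmomatic, STAR 2.6.0, HTSeq 0.11.1, edgeR and the builds hg19 and hg38, with no role or order. No source used here gives the annotation, the strand setting or the rule for reads in overlapping genes. Groups and replicate letters came from the sample labels. Per line, genes were filtered (filterByExpr, minimum count 10), scaled by TMM and tested by edgeR 4.0.16 (R 4.3.3, limma 3.58.1) with a quasi-likelihood fit of 12 libraries and 1 coefficient per group. Line comparisons used 24 libraries. A Benjamini-Hochberg adjusted p below 0.05 over all genes tested was called. SE is the absolute log2 fold change over the square root of F, and intervals are 95%. DESeq2 1.42.0 was an alternative, beside other scalings, no filter, the 6 libraries of a time point, a replicate block and leaving out each library. Letters were not treated as pairs (correlations of same-lettered deviations −0.117 to 0.161, over 0.1 in 2 of 15 pairs in KG-1a and 6 of 15 in MV4-11). Levels between genes were CPM divided by exon length in kb as the table gives it. Named genes were the 7 members, genes of the fixed lists (the called ones and, for contrast, a few that were not) and the 3 genes most alike per member. Of the gene lists, 1 item was left out and is not reported. Members and lists were chosen with earlier results of these data known. The fit was tested on simulated data with 200 changed genes, each changed by more than any member was by a drug. That run does not show how well smaller changes are called. With 2 libraries per group and 18633963 to 24520078 counts each, edgeR's biological coefficient of variation came to 0.0422 (MV4-11) and 0.0418 (KG-1a). Exact intervals and floors cover counting error only.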

Additional observations from a re-analysis of the deposited data

Results flagged for a closer look

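In KG-1a, 2 members were flagged because their responses at 24 h and 8 h differed by the test of that difference. For HOXA5 with 8CA the difference was 0.38 ± 0.12 (log2, edgeR adjusted p 0.038), and for HOXA10 with 8AA it was −0.26 ± 0.07 (adjusted p 0.0154). Between the lines, 4 responses were flagged in the same way, as MV4-11 minus KG-1a. They were MEF2C with 8AA at 8 h (0.27 ± 0.08, adjusted p 0.0343), MEF2C with 8CA at 24 h (0.28 ± 0.08, adjusted p 0.0258), HOXA10 with 8AA at 24 h (0.42 ± 0.08, adjusted p 0.000319) and PBX3 with 8AA at 24 h (−0.27 ± 0.09, adjusted p 0.0383). The call of HOXA10 between the lines was the only one of these 6 kept under every alternative run.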

How the results depend on the processing

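Of 122 member values, 35 were called, 18 of them under every alternative, and 9 others were called under an alternative only. The other 78 were called in no setting, and 37 of these lay on both sides of 0, so no direction is given for them. The untreated line difference gave 7 of the 35 and 7 of the 18, where 87.4% of all genes were called. Each drug against untreated gave 14 of 44, 8 of them under every alternative. For 8AA against 8CA it was 6 of 22, with 2 kept. The time difference of responses gave 2 of 22 and untreated time 2 of 11, with 0 kept in each. The line difference of responses gave 4 of 16, with 1 kept. Shares over all genes stand above with each comparison. MEF2C in KG-1a with 8AA at 24 h changed sign, from −0.07 to 0.0271 with library size only, 0.0047 with upper-quartile scaling and 0.0195 without 8AA replicate A (−0.1636 and called without 8AA replicate B), and the cause was not tested. Library size only and upper-quartile scaling each gave 1 called member in MV4-11 with 8CA at 8 h (0 in the report), 5 in KG-1a with 8AA at 24 h (3) and 0 in KG-1a for 8AA minus 8CA at 8 h (1). Library size only also gave 1 in KG-1a with 8AA at 8 h (3) and 0 for the line difference with 8AA at 8 h (1), where DESeq2 size factors, no filter and DESeq2's test also gave 0, and upper-quartile scaling gave 0 for the 8AA time difference in KG-1a (1). DESeq2's test gave 1 in MV4-11 with 8CA at 24 h (2) and 0 in MV4-11 with 8AA at 24 h, in MV4-11 for 8AA minus 8CA at 8 h and in KG-1a for both time differences (1 in each). No filter gave 0 in MV4-11 with 8AA at 24 h and for 8AA minus 8CA at 8 h, and 2 for the 8AA time difference in KG-1a. Fitting only the 6 libraries of a time gave 0 for 8AA minus 8CA in MV4-11 at 8 h and 2 in KG-1a with 8CA at 8 h (1).

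A replicate block gave 1 member in MV4-11 with 8CA at 8 h (MEF2C at 0.15, adjusted p 0.0417) and 2 for the 8AA time difference in KG-1a (HOXA7 at −0.26, adjusted p 0.0318), and it changed no other member call. The labels do not say what a letter marks. Correlations of same-lettered deviations were −0.085 to 0.161 in KG-1a and −0.117 to 0.159 in MV4-11, where the pairs of 8 h groups lay at 0.132 to 0.159. Over all genes the block moved 3 counts of calls by more than 1.5 times in MV4-11, from 853 to 1369 for 8AA minus 8CA at 8 h, from 593 to 1123 for the 8AA time difference and from 709 to 1321 for untreated time, and 1 in KG-1a, from 112 to 205 with 8CA at 8 h.

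Leaving out 1 library at a time moved the number of called members to 0 in MV4-11 with 8AA at 24 h and for 8AA minus 8CA at 8 h, and in KG-1a with 8CA at 8 h, for 8AA minus 8CA at 8 h and for untreated time. It gave 0 to 1 in MV4-11 for 8AA minus 8CA at 24 h and for untreated time, in KG-1a for the 8CA time difference and for the line differences with 8AA at 8 h and 8CA at 24 h. It gave 1 to 2 in MV4-11 with 8CA at 24 h and for the line difference with 8AA at 24 h, 1 to 3 in KG-1a with 8AA at 8 h and 0 to 4 for the 8AA time difference in KG-1a, where the 4 came without 8AA 24 h replicate A. The lone sample left in a group was assumed to vary like the others.

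Counts of called genes over all genes also moved by more than 1.5 times. With 8CA at 8 h they went from 112 to 272 without a filter, 503 in the 6 libraries and 28 to 37 without 1 library in KG-1a, and from 1325 to 612 in the 6 libraries and 576 to 774 without 1 library in MV4-11. For 8AA minus 8CA in MV4-11 at 8 h they went from 853 to 556 with DESeq2, 347 in the 6 libraries and 365 to 468 without 1 library. For untreated time they went from 709 to 1122 without a filter, 469 with DESeq2 and 153 to 287 without 1 library in MV4-11, and from 566 to 936 and 60 to 209 in KG-1a. The 8AA time difference went from 593 to 952 without a filter and as low as 136 without 1 library in MV4-11, and from 2330 to 3981 without 8AA 24 h replicate A and as low as 1358 in KG-1a. The line difference with 8CA at 8 h went from 162 to 246 without a filter and 82 to 103 without 1 library. Without 1 library, counts fell to 2293 of 3726 (8AA at 24 h), 1167 of 2716 (8AA minus 8CA at 24 h) and 1166 of 2088 (8CA time difference) in MV4-11, to 2841 of 4415 (8AA at 8 h), 2237 of 3868 (8AA minus 8CA at 8 h) and 2015 of 3036 (8CA time difference) in KG-1a, and to 961 of 1539 and 998 of 1555 for the line differences with 8AA at 8 h and 8CA at 24 h.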
